A study of Mus musculus with 20 samples.

Results

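Chemokines of type 2 inflammation and their receptors were followed in mouse lung RNA. The set holds 9 genes, chosen by symbol from the 24054 genes of the deposited table: the ligands Ccl11, Ccl24, Ccl8, Ccl1, Ccl17 and Ccl22 and the receptors Ccr3, Ccr4 and Ccr8. RNA was sequenced from whole lungs of female C57Bl6 mice in 20 libraries, 5 for each of 4 groups. KO_HDM were mice labelled knockout for Alox15, a lipoxygenase that oxidises polyunsaturated fatty acids, given house dust mite extract (HDM), an airborne allergen, and WT_HDM were wild-type mice given HDM. KO_saline were mice labelled knockout given saline, and WT_saline were wild-type mice given saline. HDM went into the nose daily for 14 days, and the allele behind the knockout label and the age of the mice are not given in the sources used here.

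Chemokines are small secreted proteins that guide leukocytes along a gradient. The eotaxins CCL11 and CCL24 act on CCR3, the chief chemokine receptor of eosinophils, while CCL17 and CCL22 share CCR4, which is carried by T helper 2 and regulatory T cells. CCL1 acts on CCR8, which is found on subsets of the same T cells, and in the mouse CCL8 also acts on CCR8. In allergic airways interleukin 4 and interleukin 13, acting through the transcription factor STAT6, are known inducers of several of these ligands in epithelial cells, fibroblasts, macrophages and dendritic cells.

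Total expected counts lay between 12573113 and 23305673 per library. Alox15, the gene named by the knockout label, was read first. It had 39.4, 43.5, 42.2, 45.5 and 35.0 CPM (counts corrected for library size) in KO_HDM, against 12.9, 19.8, 29.8, 22.7 and 7.92 CPM in WT_HDM. In KO_saline it had 40.8, 39.1, 44.7, 38.4 and 41.2 CPM, against 0.825, 11.1, 5.16, 3.87 and 1.98 CPM in WT_saline. The libraries labelled knockout stood above the wild-type ones of the same treatment, with no overlap. The log2 fold change was 1.15 for KO_HDM over WT_HDM, which missed the test (edgeR adjusted p = 0.107), and 3.15 for KO_saline over WT_saline (adjusted p = 0.000583). The gene thus went against the label, and every genotype difference below is that of the labels. Liver transcripts also went with 1 group: 8 liver markers summed to 36.6 to 117 CPM in KO_HDM and to 6.37 CPM at most in any other library. Adipose markers stood high in 5 libraries with 50 CPM or more of Adipoq (KO_HDM 5, WT_HDM 2, WT_HDM 4, WT_saline 2 and WT_saline 4). Lymphoid markers were highest in WT_saline 4, at 746 CPM, and skeletal muscle markers reached 4179 CPM in WT_HDM 2.

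Of the 9 genes, 8 had enough counts to be tested, and Ccl1 did not. Libraries were compared with edgeR's quasi-likelihood test, and a gene was called at a Benjamini-Hochberg adjusted p under 0.05. In libraries labelled knockout, HDM raised 6 of the 8 tested members and lowered none, where 51.9% of all genes were called and 26.2% were called higher. In wild-type libraries HDM also raised 6 of 8 and lowered none, where 30.1% of all genes were called and 13.6% were called higher. Ccl8, Ccl11, Ccl17, Ccr3 and Ccr4 made up the 5 that rose in both. The median log2 fold change of the 8 was 1.83 with HDM in libraries labelled knockout and 2.78 in wild type, beside medians of 0.02 and −0.02 over all genes tested. Without WT_saline 4 and KO_saline 4 the members called were 6 and 7, and without the adipose-rich libraries 6 and 6. For 5 of 8 members the KO_HDM and KO_saline libraries did not overlap, where 43.9% of all genes did not, and for 4 of 8 the WT_HDM and WT_saline libraries did not, where 11.6% of all genes did not. HDM counts in the lists of other genes below stand beside the same shares of all genes called. Since these are whole lungs, more cells of a type and more RNA per cell cannot be told apart.

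**Figure D1:**
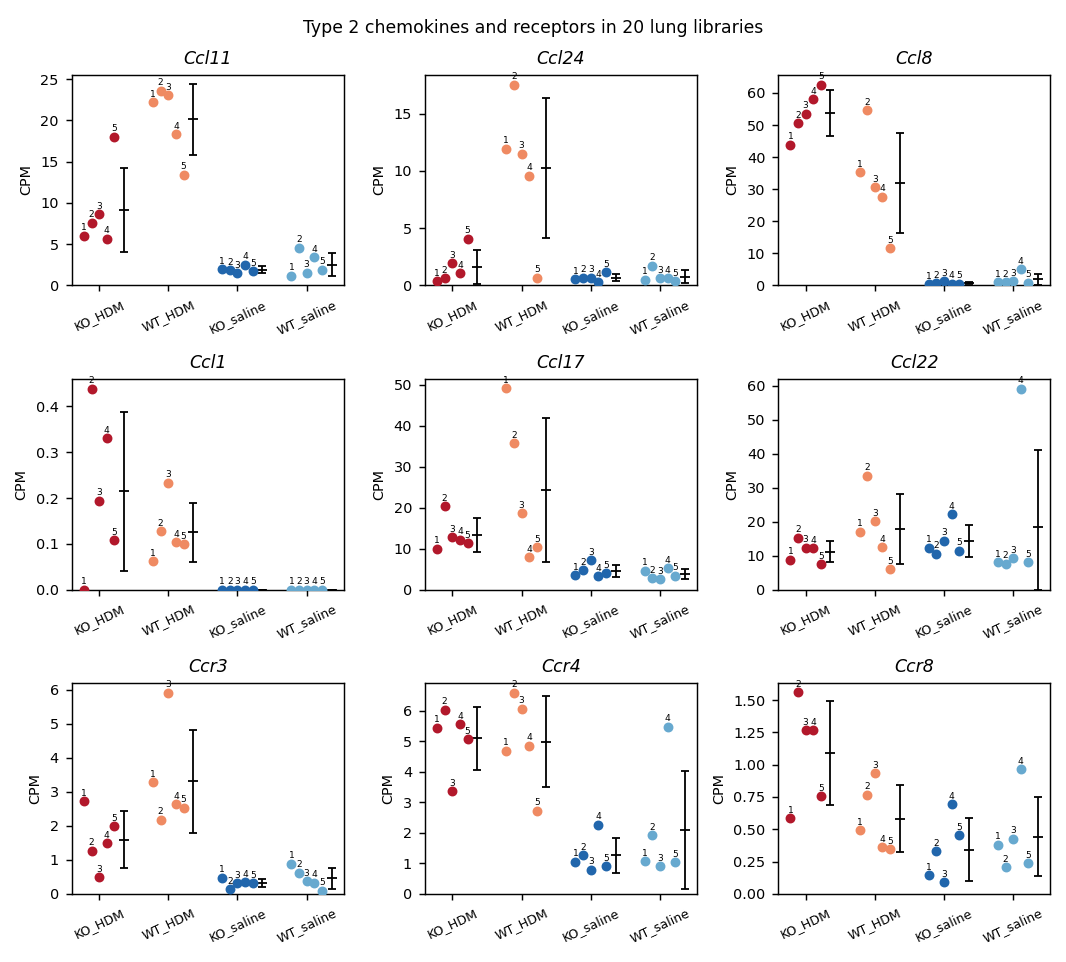
CPM of the 9 members in every library, with the replicate number above each point and the mean and SD (n = 5) to the right of each group, cut at 0 on the lower side. Ccl8, Ccl11, Ccl17, Ccr3 and Ccr4 rose with HDM in both genotypes, Ccl24 stands high in 4 WT_HDM libraries, and Ccl22 stands high in WT_saline 4.

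Ccl11 and Ccl24, the eotaxins, were both lower in KO_HDM than in WT_HDM, and only Ccl11 rose with HDM past the test in libraries labelled knockout. Ccl11 measured 6.03, 7.60, 8.66, 5.68 and 18.1 CPM in KO_HDM, against 22.2, 23.6, 23.1, 18.3 and 13.4 CPM in WT_HDM. It measured 1.96, 1.88, 1.5, 2.52 and 1.73 CPM in KO_saline, against 1.21, 4.56, 1.54, 3.40 and 1.93 CPM in WT_saline. Every HDM library stood above every saline library, 4 of the 5 KO_HDM libraries stood below all WT_HDM libraries, and KO_HDM 5 lay inside the WT_HDM range. The group means fell in the order WT_HDM (20.1 ± 4.28 CPM, SD, n = 5), KO_HDM (9.20 ± 5.09), WT_saline (2.53 ± 1.41) and KO_saline (1.92 ± 0.381), with KO_saline within the range of WT_saline. With HDM the log2 fold change of Ccl11 was 2.26 ± 0.35 (SE; edgeR adjusted p = 3.19e-05) in libraries labelled knockout. In wild type it was 2.98 ± 0.35 (edgeR adjusted p = 7.95e-06).

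Ccl24 measured 0.374, 0.633, 1.95, 1.05 and 4.10 CPM in KO_HDM, against 11.9, 17.5, 11.5, 9.57 and 0.693 CPM in WT_HDM. In KO_saline it measured 0.527, 0.658, 0.660, 0.304 and 1.14 CPM, against 0.508, 1.71, 0.638, 0.644 and 0.377 CPM in WT_saline. Among the WT_HDM libraries 4 stood far above all others, while WT_HDM 5 lay within the range of every other group. The order of the means was WT_HDM (10.2 ± 6.11 CPM, SD, n = 5), KO_HDM (1.62 ± 1.51), WT_saline (0.775 ± 0.534) and KO_saline (0.658 ± 0.306), and the last 3 ranges overlapped. With HDM the log2 fold change of Ccl24 was 3.71 ± 0.70 (SE; edgeR adjusted p = 0.000768) in wild type. In libraries labelled knockout it was 1.29 ± 0.70 and missed the test (edgeR adjusted p = 0.128), although it passed without WT_HDM 5 (1.33; adjusted p = 0.0463).

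The genotype comparison asks how lungs labelled Alox15 knockout differ from wild type under the same treatment. Under HDM 2 of 8 tested members were called, both lower, where 6.67% of all genes were called and 1.88% were called lower. Ccl24 was 6.30-fold lower in KO_HDM than in WT_HDM, a log2 fold change of −2.66 ± 0.66 (SE; edgeR adjusted p = 0.0198). Ccl11 was 2.18-fold lower, at −1.13 ± 0.32 (SE; edgeR adjusted p = 0.0429). Rn45s, a ribosomal RNA precursor, made up 1.82 to 2.98% of counts in KO_HDM and 2.72 to 6.08% in WT_HDM. Its share was 1.21 to 2.26% in KO_saline and 1.47 to 3.47% in WT_saline. Among WT_HDM libraries it was lowest in WT_HDM 5, at 2.72%. The part of this difference in the 2 calls was not tested. For no tested member did the KO_HDM and WT_HDM libraries stand fully apart, where 7.01% of all genes did. Both calls turned on single libraries. When each of the 20 libraries was left out in turn, Ccl24 missed the test without KO_HDM 2 (adjusted p = 0.0554) or KO_HDM 4 (0.0684), and its log2 fold change was −3.34 without KO_HDM 5. Ccl11 missed it in 13 of 20 such fits, namely without any of KO_HDM 1 to 4, WT_HDM 1 to 4 or KO_saline 1 to 5, with adjusted p up to 0.136, and limma voom did not call Ccl24 (−2.44; adjusted p = 0.118).

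The eotaxin values of the 5 adipose-rich libraries were read against those of their groups. KO_HDM 5, which had the highest Ccl11 and Ccl24 of its group, held 759 CPM of summed adipose markers, against 3.45 to 44.2 CPM in the other KO_HDM libraries. WT_saline 2 and WT_saline 4, which had the highest Ccl11 of their group, held 386 and 462 CPM, while Ccl24 in WT_saline 4 was 0.644 CPM, within the range of its group. WT_HDM 2, with the highest Ccl11 and Ccl24 of its group, held 744 CPM. WT_HDM 4 held the most of all libraries, 822 CPM. Its 18.3 CPM of Ccl11 and 9.57 CPM of Ccl24 were the second lowest of WT_HDM and above every library of the other groups. Over the groups the 7 adipose markers summed to 3.45 to 759 CPM in KO_HDM and 7.11 to 822 in WT_HDM. They summed to 9.68 to 172 CPM in KO_saline and 16.9 to 462 in WT_saline. With such spread within groups, 0 of 7 passed the test in any comparison of the fit over all 20 libraries. A fit without the 5 adipose-rich libraries was chosen after seeing the data. In it KO_HDM over WT_HDM was −1.47 for Ccl11 (edgeR adjusted p = 0.00101) and −2.97 for Ccl24 (adjusted p = 0.0186). There 4 of 7 adipose markers were lower with HDM in libraries labelled knockout, and 0 of 7 were called between KO_HDM and WT_HDM. The part of adipose tissue in the Ccl11 and Ccl24 values was not tested.

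**Figure D2:**
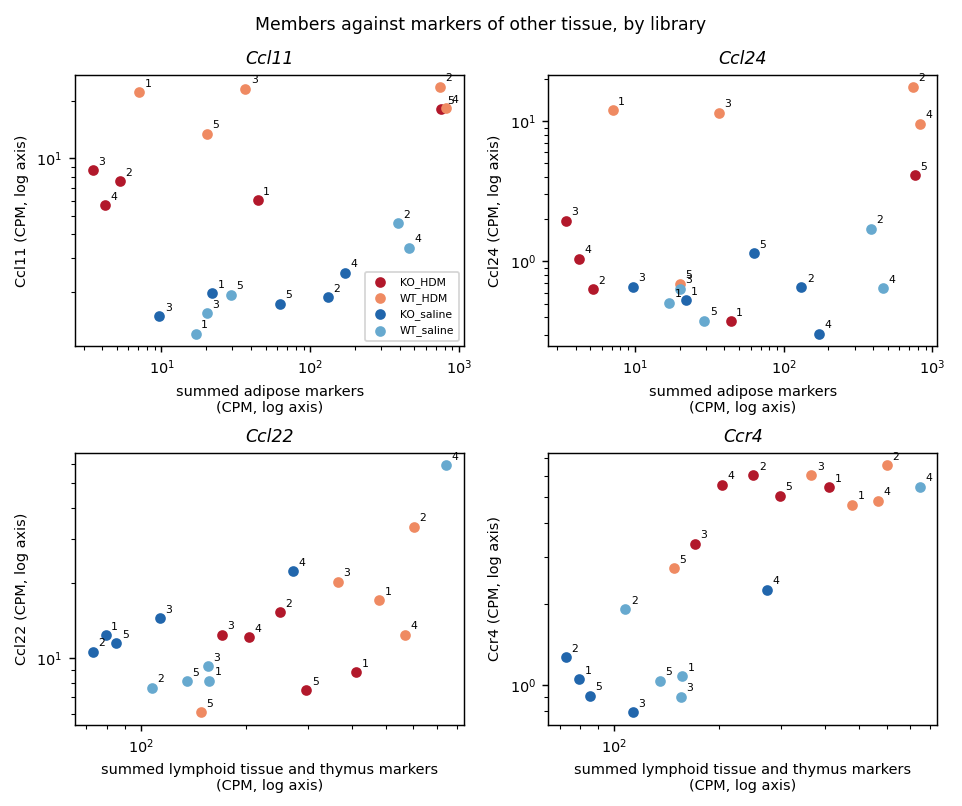
Each point is 1 library, with its replicate number; the x axes give summed adipose markers (top) or summed lymphoid tissue and thymus markers (bottom) in CPM, and the y axes give the CPM of Ccl11, Ccl24, Ccl22 and Ccr4, all on log scales. KO_HDM 5 stands at 759 CPM of adipose markers with the highest Ccl11 and Ccl24 of its group, and WT_saline 4 at 746 CPM of lymphoid markers with the highest Ccl22 of all libraries.

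Ccl8, a monocyte chemoattractant that in mice acts on CCR8, had the largest log2 rise of the 8 tested members in both genotypes. It measured 43.9, 50.5, 53.5, 58.1 and 62.6 CPM in KO_HDM, against 35.3, 54.7, 30.6, 27.7 and 11.6 CPM in WT_HDM. In KO_saline it measured 0.383, 0.705, 1.36, 0.522 and 0.547 CPM, against 1.02, 0.933, 1.38, 5.15 and 0.801 CPM in WT_saline. All 10 HDM libraries stood above all 10 saline libraries, and the KO_HDM and WT_HDM ranges overlapped through WT_HDM 2. With HDM its log2 fold change was 6.23 ± 0.54 (SE; edgeR adjusted p = 9.46e-08) in libraries labelled knockout. In wild type it was 4.07 ± 0.48 (edgeR adjusted p = 1.04e-05), and 4.95 without WT_saline 4, the saline library with the most Ccl8.

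The order of the Ccl8 means was KO_HDM (53.7 ± 7.15 CPM, SD, n = 5), WT_HDM (32.0 ± 15.5), WT_saline (1.86 ± 1.86) and KO_saline (0.704 ± 0.386). Neither genotype step in that order passed the test, at 0.75 ± 0.41 (SE; edgeR adjusted p = 0.307) under HDM and −1.41 ± 0.55 (adjusted p = 0.240) under saline. Limma voom put the step under HDM at 0.93 and called it (adjusted p = 0.0435). The promoter window of Ccl8, as the member with the largest rise, is shown from the RefSeq table of build GRCm38.p6, from 250 bases before to 50 bases after the gene's start, at chr11:82114935-82115234 on the + strand, with none of the motifs searched below in it.
Ccl8: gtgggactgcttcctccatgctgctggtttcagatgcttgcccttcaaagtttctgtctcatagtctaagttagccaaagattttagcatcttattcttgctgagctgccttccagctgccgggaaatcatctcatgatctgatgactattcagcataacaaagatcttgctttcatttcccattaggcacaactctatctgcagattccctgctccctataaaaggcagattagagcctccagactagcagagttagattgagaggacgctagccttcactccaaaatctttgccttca

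Ccl1, a ligand of CCR8, was found in HDM libraries and in no saline library. The KO_HDM libraries held 0, 9, 4, 6 and 2 counts, and the WT_HDM libraries 1, 2, 3, 2 and 2 counts. All 10 saline libraries held 0, so that only KO_HDM 1 among the HDM libraries was not above them. Against a floor of 3 counts over a saline group, Ccl1 was 7.97-fold higher in KO_HDM than in KO_saline. On the same floor it was 3.83-fold higher in WT_HDM than in WT_saline. The floor allows for counting error in the saline group only, and not in the 21 counts of KO_HDM or the 10 of WT_HDM. It did not pass the filter on low counts; with no filter edgeR gave adjusted p = 0.0022 with HDM in libraries labelled knockout, 0.0225 in wild type and 0.602 for KO_HDM against WT_HDM.

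Ccl17 and Ccl22, the ligands that share CCR4, parted under HDM: Ccl17 rose in both genotypes, and Ccl22 passed the test in neither. They lie on chromosome 8, and their promoter windows are shown because the pair differed, from RefSeq, build GRCm38.p6, both on the + strand. Capitals mark motifs found on either strand. The motifs searched were the STAT6 form TTCNNNNGAA, the related GAS form TTCNNNGAA and the NF-kB motif, which occur in 6.95%, 8.3% and 8.46% of the 32851 promoter windows of the table. The Ccl17 window, chr8:94810203-94810502, holds TTCTCTGGAA at −154 to −145 from the start and TTCTTTGAA at −99 to −91, which do not overlap. The Ccl22 window, chr8:94745434-94745733, holds none of the 3. These matches describe the letters of a window and say nothing of binding.
Ccl17: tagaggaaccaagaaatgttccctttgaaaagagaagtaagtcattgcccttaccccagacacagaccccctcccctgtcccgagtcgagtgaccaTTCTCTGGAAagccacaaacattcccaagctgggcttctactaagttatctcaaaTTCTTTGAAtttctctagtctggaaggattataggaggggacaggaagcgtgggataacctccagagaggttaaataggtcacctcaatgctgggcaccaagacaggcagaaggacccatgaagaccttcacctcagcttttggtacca
Ccl22: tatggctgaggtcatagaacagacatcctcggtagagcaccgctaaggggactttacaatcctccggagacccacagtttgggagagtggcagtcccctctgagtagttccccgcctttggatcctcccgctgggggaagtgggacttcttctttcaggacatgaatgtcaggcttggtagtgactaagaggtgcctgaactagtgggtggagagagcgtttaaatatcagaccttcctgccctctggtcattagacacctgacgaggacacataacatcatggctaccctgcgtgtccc

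Ccl17 measured 9.98, 20.3, 12.8, 12.2 and 11.4 CPM in KO_HDM, against 49.1, 35.8, 18.6, 7.86 and 10.4 CPM in WT_HDM. It measured 3.54, 4.74, 7.13, 3.22 and 4.06 CPM in KO_saline, against 4.63, 2.75, 2.50, 5.29 and 3.39 CPM in WT_saline. All HDM libraries stood above all saline libraries, and the WT_HDM libraries spread most widely, with 3 above and 2 below most of KO_HDM. The means ran WT_HDM (24.4 ± 17.6 CPM, SD, n = 5), KO_HDM (13.3 ± 4.05), KO_saline (4.54 ± 1.56) and WT_saline (3.71 ± 1.21), and neighbours of the same treatment overlapped. The log2 fold change of Ccl17 with HDM was 1.55 ± 0.41 (SE; edgeR adjusted p = 0.00401) in libraries labelled knockout and 2.71 ± 0.43 (adjusted p = 0.000163) in wild type. KO_HDM over WT_HDM was −0.87 ± 0.40 and missed the test (edgeR adjusted p = 0.214).

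Ccl22 measured 8.81, 15.3, 12.4, 12.1 and 7.44 CPM in KO_HDM, against 17.1, 33.6, 20.2, 12.4 and 6.09 CPM in WT_HDM. It measured 12.4, 10.6, 14.4, 22.3 and 11.5 CPM in KO_saline, against 8.12, 7.62, 9.30, 59.1 and 8.11 CPM in WT_saline. The 4 groups overlapped throughout, and the highest value of all was that of WT_saline 4, the library with the most lymphoid transcripts. The means were WT_saline (18.5 ± 22.7 CPM, SD, n = 5), WT_HDM (17.9 ± 10.3), KO_saline (14.2 ± 4.70) and KO_HDM (11.2 ± 3.12), an order in which no neighbours differed beyond their spread. With HDM its log2 fold change was −0.34 ± 0.55 (SE; edgeR adjusted p = 0.623) in libraries labelled knockout and −0.06 ± 0.54 (adjusted p = 0.951) in wild type. Without WT_saline 4 the wild-type value was 1.10 (adjusted p = 0.023), and without both WT_saline 4 and KO_saline 4, a fit chosen after seeing the data, it was 1.11 (adjusted p = 0.018).

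The 10 lymphoid tissue and thymus markers summed to 170 to 411 CPM in KO_HDM, 148 to 602 in WT_HDM, from 73.0 to 273 in KO_saline, and from 108 to 746 in WT_saline. KO_saline 4 and WT_saline 4 held the most of their groups, and also the most Ccl22, Ccr4 and Ccr8. Of 8 tested lymphoid markers, 3 rose with HDM in libraries labelled knockout, and 1 rose and 1 fell in wild type. Without WT_saline 4 and KO_saline 4, 6 of 8 rose in each genotype and none fell. Dendritic cells are a known source of CCL17 and CCL22. Of their 10 markers 4 rose and 2 fell with HDM in libraries labelled knockout, where 51.9% of all genes were called. In wild type 5 rose, where 30.1% of all genes were called. Those markers summed to 645 to 731 CPM in KO_HDM, 514 to 782 in WT_HDM, from 226 to 269 in KO_saline, and from 231 to 358 in WT_saline. The part of either marker list in the Ccl17 and Ccl22 values was not tested.

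The split between these ligands was also measured within each library as a log2 ratio of Ccl22 over Ccl17, each as CPM + 0.5. The ratio was −0.24 ± 0.24 (SD, n = 5) in KO_HDM, against 1.55 ± 0.66 in KO_saline. In WT_HDM it was −0.31 ± 0.82, against 1.66 ± 1.01 in WT_saline. All HDM libraries stood below all saline libraries. The differences were −1.79 and −1.97, each with p = 0.00794 by an exact two-sided permutation test, the smallest p possible with 5 libraries against 5, and 0.0423 after adjustment over 16 such tests. When 1 library was left out, the adjusted p missed 0.05 in 3 of 10 fits in libraries labelled knockout and in 7 of 10 in wild type, with values up to 0.0635. KO_HDM over WT_HDM differed by 0.08 and KO_saline over WT_saline by −0.11 (adjusted exact permutation p = 0.929 each).

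**Figure D3:**
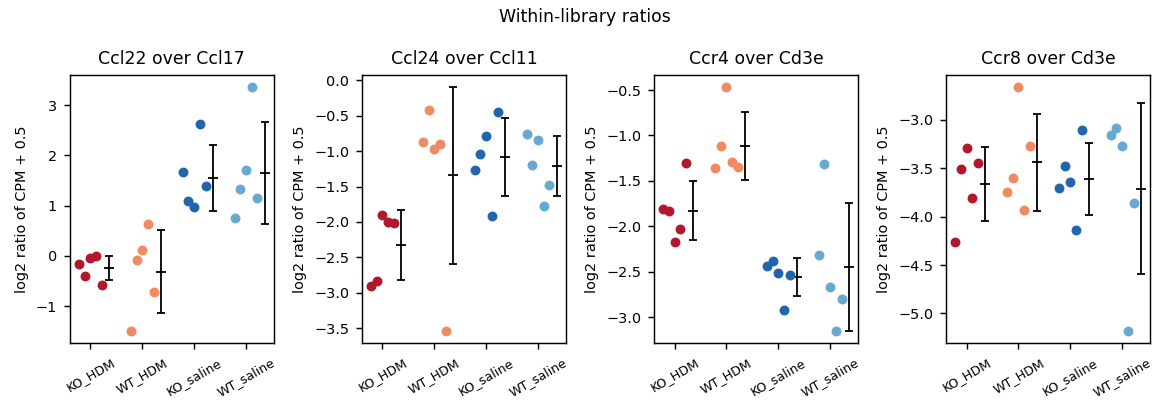
Within-library log2 ratios of CPM + 0.5 in the 4 groups, replicates 1 to 5 from left to right, with the mean and SD (n = 5) beside each group. Ccl22 over Ccl17 reaches 0.63 at most in the HDM libraries and 0.75 at least in the saline libraries, and Ccl24 over Ccl11 is lowest in WT_HDM 5, at −3.54.

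The ratio of the eotaxins, Ccl24 over Ccl11, was −2.33 ± 0.49 (SD, n = 5) in KO_HDM, against −1.09 ± 0.55 in KO_saline. The difference of −1.24 had p = 0.0159 by an exact two-sided permutation test, or 0.0635 after adjustment. KO_HDM over WT_HDM differed by −0.99 (adjusted exact permutation p = 0.308), where WT_HDM 5 alone lay at −3.54 and the other WT_HDM libraries at −0.97 to −0.42. Without WT_HDM 5 that difference was −1.54 (adjusted p = 0.0423).

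Among the receptors, Ccr3 and Ccr4 rose with HDM in both genotypes, and Ccr8 in the libraries labelled knockout. Ccr3, the eotaxin receptor, measured 2.72, 1.27, 0.486, 1.49 and 1.99 CPM in KO_HDM, against 3.27, 2.18, 5.91, 2.64 and 2.53 CPM in WT_HDM. It measured 0.479, 0.141, 0.308, 0.348 and 0.319 CPM in KO_saline, against 0.888, 0.622, 0.372, 0.322 and 0.0942 CPM in WT_saline. Every HDM library stood above every saline library of its own genotype, and KO_HDM and WT_HDM overlapped. The means ran WT_HDM (3.30 ± 1.51 CPM, SD, n = 5), KO_HDM (1.59 ± 0.833), WT_saline (0.460 ± 0.304) and KO_saline (0.319 ± 0.121), and neighbours of the same treatment overlapped. The log2 fold change with HDM was 2.29 ± 0.48 (SE; edgeR adjusted p = 0.000597) in libraries labelled knockout and 2.86 ± 0.47 (adjusted p = 0.000227) in wild type, and KO_HDM over WT_HDM was −1.05 ± 0.43 (adjusted p = 0.154). Its promoter window, shown as that of the receptor of both eotaxins (RefSeq, GRCm38.p6, chr9:124021721-124022020, + strand), holds 1 NF-kB motif, GGAAATTCCC, in capitals at −179 to −170.
Ccr3: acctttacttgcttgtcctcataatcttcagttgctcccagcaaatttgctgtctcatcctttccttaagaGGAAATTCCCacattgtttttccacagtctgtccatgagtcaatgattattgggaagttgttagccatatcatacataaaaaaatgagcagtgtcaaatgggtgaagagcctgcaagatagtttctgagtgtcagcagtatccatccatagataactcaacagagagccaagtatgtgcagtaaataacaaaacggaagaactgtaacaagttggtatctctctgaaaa

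Ccr3 is itself 1 of the 10 tested eosinophil markers, of which 8 rose and 1 fell with HDM in each genotype. Prg2, the eosinophil major basic protein, rose by a log2 fold change of 4.02 in libraries labelled knockout and 3.9 in wild type. Rnase2a, a ribonuclease of eosinophils with close relatives among which reads may be shared, rose by 7.06 and 9.38, and Cebpe, a transcription factor of granulocyte development, by 2.32 and 2.94; without the adipose-rich libraries the wild-type values were 4.96 for Prg2, 10.3 for Rnase2a and 3.69 for Cebpe. Epx, the eosinophil peroxidase, had at most 4 counts in any library, and Ear1 fell by 1.15 in libraries labelled knockout and by 1.48 in wild type. The 12 listed markers summed to 270.0 to 342 CPM in KO_HDM, 201 to 371 in WT_HDM, from 94.3 to 135 in KO_saline, and from 84.1 to 156 in WT_saline, and 0 of 10 differed between KO_HDM and WT_HDM past the test. Without WT_saline 4 and KO_saline 4, 1 was higher in KO_HDM (Csf2rb, a shared cytokine receptor chain), and Prg2 rose by 4.80 and 4.63. In that fit 7 rose and 0 fell with HDM in libraries labelled knockout, and 8 rose and 1 fell in wild type. Without the adipose-rich libraries 6 rose and 1 fell in each genotype. There 1 marker was higher and 1 lower in KO_HDM than in WT_HDM. Csf2rb and Ear2, another ribonuclease of eosinophils, had the largest medians of the 12, 171 and 91.2 CPM in KO_HDM against 118 and 95.6 in WT_HDM. The median log2 fold change of the 10 tested markers was −0.49 for KO_HDM over WT_HDM, a direction that the sums do not show. Whether the change in Ccr3 went beyond that of the eosinophil markers was not tested.

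Ccr4, the receptor of CCL17 and CCL22, measured 5.44, 6.04, 3.36, 5.57 and 5.07 CPM in KO_HDM, against 4.70, 6.59, 6.06, 4.86 and 2.72 CPM in WT_HDM. It measured 1.05, 1.27, 0.792, 2.26 and 0.912 CPM in KO_saline, against 1.08, 1.92, 0.904, 5.48 and 1.04 CPM in WT_saline. All HDM libraries stood above 9 of the 10 saline libraries, and WT_saline 4 stood among them. The means of KO_HDM (5.10 ± 1.03 CPM, SD, n = 5) and WT_HDM (4.99 ± 1.5) lay together above those of WT_saline (2.08 ± 1.94) and KO_saline (1.26 ± 0.588). With HDM the log2 fold change of Ccr4 was 2.01 ± 0.43 (SE; edgeR adjusted p = 0.000683) in libraries labelled knockout and 1.24 ± 0.42 (adjusted p = 0.0311) in wild type. The wild-type call was lost without WT_saline 1, 2, 3 or 5 or WT_HDM 2 or 3 (adjusted p up to 0.0777), while without WT_saline 4 the value was 2.00 (adjusted p = 0.000165). KO_HDM over WT_HDM was 0.04 ± 0.40 (adjusted p = 0.973), a value whose sign changed when single libraries were left out.

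Ccr8, the receptor of CCL1, measured 0.587, 1.56, 1.26, 1.27 and 0.755 CPM in KO_HDM, against 0.494, 0.768, 0.932, 0.362 and 0.347 CPM in WT_HDM. It measured 0.144, 0.329, 0.0880, 0.696 and 0.456 CPM in KO_saline, against 0.381, 0.207, 0.425, 0.966 and 0.236 CPM in WT_saline. Every pair of groups overlapped, and the counts were low, between 2 and 32 per library. The means ran KO_HDM (1.09 ± 0.402 CPM, SD, n = 5), WT_HDM (0.581 ± 0.259), WT_saline (0.443 ± 0.307) and KO_saline (0.342 ± 0.246), and no neighbours in that order were apart beyond their spread. With HDM the log2 fold change was 1.64 ± 0.48 (SE; edgeR adjusted p = 0.00783) in libraries labelled knockout, and 0.34 ± 0.50 (adjusted p = 0.654) in wild type. KO_HDM over WT_HDM was 0.93 ± 0.47 (adjusted p = 0.270).

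The T cell receptors were set against Cd3e, a subunit of the T cell antigen receptor complex, within each library. Log2 of Ccr4 over Cd3e was −1.83 ± 0.33 (SD, n = 5) in KO_HDM, against −2.56 ± 0.21 in KO_saline, a difference of 0.73 with no overlap (exact two-sided permutation p = 0.00794, adjusted 0.0423). In WT_HDM it was −1.11 ± 0.38, against −2.45 ± 0.70 in WT_saline, a difference of 1.33 (exact permutation p = 0.0238, adjusted 0.0635). KO_HDM over WT_HDM differed by −0.71, with the same pair of p-values. The first of these differences was 0.26 (adjusted p = 0.494) with a pseudocount of 2 in place of 0.5. With 1 library left out it missed the test in 4 of 10 fits (adjusted exact permutation p up to 0.0635). The wild-type difference was 1.62 without WT_saline 2 (adjusted exact permutation p = 0.0423). KO_HDM over WT_HDM was −0.84 without KO_HDM 5 (adjusted exact permutation p = 0.0317). For Ccr8 over Cd3e the 4 differences lay between −0.22 and 0.27 (adjusted exact permutation p = 0.929 each), with Ccr8 under 10 counts in 10 of 20 libraries.

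Of 8 tested T cell markers, 2 rose with HDM in libraries labelled knockout, among them the costimulatory receptor Cd28 (2.34), and 2 fell in wild type, Cd8a (−1.44) and Cd8b1 (−1.92), the chains of the CD8 coreceptor. Those counts rested on the saline libraries numbered 4: without both, 6 of 8 rose in libraries labelled knockout and 4 rose and none fell in wild type, with Cd8a at −0.45 (edgeR adjusted p = 0.145) and Cd8b1 at −0.72 (adjusted p = 0.0559). The T cell markers summed to 102 to 154 CPM in KO_HDM, 52.2 to 106 in WT_HDM, from 45.3 to 136 in KO_saline, and from 41.0 to 361 in WT_saline, the last value in WT_saline 4. Regulatory T cell markers rose in 5 of 7 with HDM in libraries labelled knockout and in 2 of 7 in wild type. Ctla4, an inhibitory receptor of T cells, rose by 3.52 and 1.96 on the log2 scale, and Foxp3, the transcription factor of regulatory T cells, rose by 1.88 in libraries labelled knockout, against a value of 0.40 that missed the test in wild type (edgeR adjusted p = 0.585). Without both saline libraries numbered 4, 6 of 7 rose in each genotype, and in wild type Foxp3 was at 1.31 (adjusted p = 0.00425) and Ctla4 at 3.06. These 7 markers summed to 71.1 to 99.2 CPM in KO_HDM, 43.1 to 68.5 in WT_HDM, from 22.5 to 44.3 in KO_saline, and from 27.2 to 75.8 in WT_saline. Their part in the Ccr4 and Ccr8 values was not tested.

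Under saline, KO_saline over WT_saline was called for 0 of 8 tested members by edgeR and by DESeq2, where edgeR called 0.908% of all genes. At an unadjusted p under 0.05, 1 member passed with each tool, and 0 with limma voom. Ccl17 stood at 0.29 and the other 7 members between −1.41 and −0.24 on the log2 scale. The test of whether HDM acted differently in the 2 genotypes, the interaction, called 0 of 8 members, where 1.24% of all genes were called; 2 passed an unadjusted p under 0.05. Those were Ccl24, at −2.42 ± 0.97 (SE; edgeR adjusted p = 0.226), and Ccl8, at 2.16 ± 0.68 (adjusted p = 0.127). DESeq2 called 1 member, Ccl8 (2.15; adjusted p = 0.0298), with 3 at an unadjusted p under 0.05, and the fit without the adipose-rich libraries called Ccl11 (−1.76; adjusted p = 0.0289). The HDM comparisons and the genotype comparisons share libraries with each other.

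**Figure D4:**
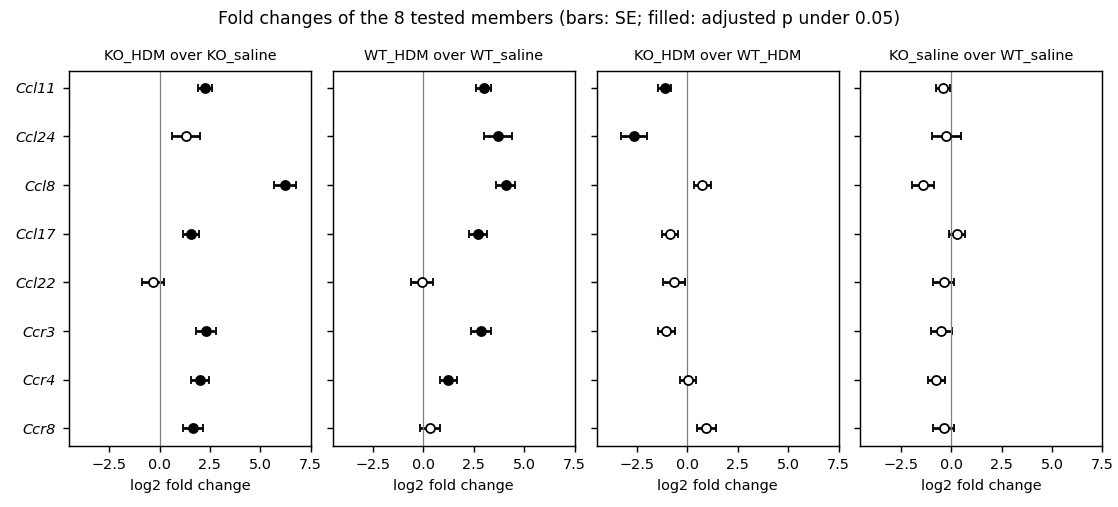
Log2 fold changes (points) and their standard errors (bars) of the 8 tested members in 4 comparisons, filled where the edgeR adjusted p was under 0.05. With HDM 6 members were called higher in each genotype, and Ccl24 and Ccl11 were called lower in KO_HDM than in WT_HDM; no member was called in KO_saline against WT_saline.

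The wider CC family was read from lists of 14 other chemokines and 12 other receptors. With HDM 9 of 14 other chemokines rose and 1 fell in libraries labelled knockout, and 7 rose and 3 fell in wild type. Ccl20, the CCR6 ligand that draws dendritic cells and lymphocytes, rose by a log2 fold change of 4.04 in libraries labelled knockout and 4.45 in wild type. Ccl9, an attractant of myeloid cells that act through CCR1, rose by 2.80 and 3.43, and Ccl7, another CCR3 ligand, by 2.61 and 2.71. Ccl5, another ligand of CCR3, fell by 1.78 in wild type and had −0.96 in libraries labelled knockout (edgeR adjusted p = 0.116); without both saline libraries numbered 4 it was −0.77 in wild type (adjusted p = 0.0375) and −0.72 in libraries labelled knockout (adjusted p = 0.0314). Ccl20 with HDM in wild type was 5.79 without the adipose-rich libraries, and Ccl7 was 3.51. Ccl26, a further eotaxin, had 0 counts in all libraries. None of the 14 was called between KO_HDM and WT_HDM.

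Of 11 tested other receptors, 6 rose and 3 fell with HDM in libraries labelled knockout, where 51.9% of all genes were called. In wild type 4 rose and 2 fell, where 30.1% of all genes were called. Ccr1, a receptor of myeloid cells, rose by a log2 fold change of 2.19 in libraries labelled knockout and 2.24 in wild type. Ccr6, the receptor of CCL20, rose by 2.30 and 1.80, and Ackr1, a receptor on venular endothelium that binds chemokines without signalling, by 2.00 and 1.59; without both saline libraries numbered 4 the wild-type values were 2.78 for Ccr6 and 2.45 for Ackr1. Under HDM 2 of 11 were higher in KO_HDM than in WT_HDM, among them Ccr2, the receptor of inflammatory monocytes, by 0.78 (edgeR adjusted p = 0.0443). Between these groups 6.67% of all genes were called. Monocyte and interstitial macrophage markers were higher in KO_HDM than in WT_HDM in 6 of 8, a list that holds Ccr2 as well, and summed to 466 to 850.4 CPM in KO_HDM, 266 to 456 in WT_HDM, from 144 to 185 in KO_saline, and from 146 to 228 in WT_saline. Their part in the Ccl8 and Ccr2 values was not tested.

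Macrophages are a known source of CCL24 in the mouse. Of 8 alternative macrophage markers, 6 rose with HDM in libraries labelled knockout and 7 in wild type, among them Arg1, the arginine-degrading enzyme, by 4.68 and 5.73 on the log2 scale. Retnla, a secreted protein of such macrophages, rose by 4.97 and 4.56. Between KO_HDM and WT_HDM 1 of 8 was higher, Fn1 (fibronectin, 0.84), and 1 lower, Mgl2 (a lectin, −0.91). The list summed to 8791 to 12785 CPM in KO_HDM, 8707 to 17901 in WT_HDM, from 1315 to 1740.1 in KO_saline, and from 1310.0 to 1711 in WT_saline. Their part in the Ccl24 values was not tested.

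Interleukin 4 and interleukin 13 signal through a shared receptor chain and JAK kinases to STAT6. Of 12 tested genes of that pathway, 7 rose and 2 fell with HDM in libraries labelled knockout, and 4 rose in wild type. Of all genes, 51.9% were called in libraries labelled knockout, 26.2% of them as higher among all tested. In wild type 30.1% were called and 13.6% were called higher. The medians of the 12 were 0.48 and 0.28 on the log2 scale. Socs1, a feedback inhibitor of cytokine receptors, rose by 1.06 in libraries labelled knockout, and Jak2, a receptor-bound kinase, by 0.68 in libraries labelled knockout and 0.34 in wild type. Stat6 itself fell by 0.27 in libraries labelled knockout, against −0.15 in wild type, which missed the test (edgeR adjusted p = 0.122). Il4 had at most 8 and Il13 at most 12 counts in any library, so neither was tested. Il13 had no counts in KO_saline and peaked at 0.0635 CPM in WT_saline. Its HDM values began at 0.0551 CPM for KO_HDM and at 0.198 for WT_HDM, with maxima of 0.584 and 0.932. For Il4 the KO_HDM maximum of 0.162 CPM lay below the WT_HDM minimum of 0.247. Under saline Il4 peaked at 0.132 CPM (KO_saline) and 0.372 (WT_saline). All of these values rest on low counts. Of 8 tested markers of Th2 cells and group 2 innate lymphoid cells, 2 rose and 1 fell with HDM in libraries labelled knockout. In wild type 1 rose, and both counts lay below the shares of all genes called. The medians were 0.02 and −0.15 on the log2 scale. In wild type 2 rose without the adipose-rich libraries. Without both saline libraries numbered 4, 2 rose and 2 fell in libraries labelled knockout, and 2 rose and 1 fell in wild type. The list summed to 139 to 177 CPM in KO_HDM, 123 to 179.6 in WT_HDM, from 151 to 162 in KO_saline, and from 138 to 171 in WT_saline. Rora alone had medians of 111 CPM in KO_HDM, 87.9 in WT_HDM, 115 in KO_saline and 118 in WT_saline, so the sums say little of the other genes. In libraries labelled knockout Icos, a costimulatory receptor of T cells, rose by 2.58 and Gata3, a transcription factor of these cells, fell by 0.60. Il1rl1, the receptor of interleukin 33, rose with HDM by 0.63 in libraries labelled knockout and 0.77 in wild type, and was lower in KO_HDM than in WT_HDM by a log2 fold change of −0.81 (edgeR adjusted p = 0.00884).

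The members differed in how far the 5 libraries of a group spread. The within-group SD of log2 CPM was largest for Ccl24 (1.19) and then ran through Ccl22 (0.83), Ccl8 (0.73), Ccr3 (0.71), Ccl17 (0.67), Ccr8 (0.67), Ccr4 (0.65) and Ccl11 (0.55). The median over all genes tested was 0.23, below every member. Genes with the most similar pattern over the 20 libraries were found by the root mean square difference of centred log2 CPM among 13377 genes. Adora3, Ptx3 and Il33 came nearest to Ccl17 (0.51 to 0.55), and Zap70, Lck and Icosl to Ccl22 (0.47 to 0.51). Wfdc13, Rhox8 and Adra2a came nearest to Ccl11 (0.53 to 0.56), and Csmd1, Has2 and Blnk to Ccr4 (0.32 to 0.35). Mmp13, Mid1 and Perm1 came nearest to Ccl24 (0.90 to 0.98), and Cd177, Wfdc17 and H2-M2 to Ccl8 (0.86 to 0.91). The median distance over all genes was 2.75 for Ccl8, 1.74 for Ccl24, 1.48 for Ccl11, 1.21 for Ccl17, 1.10 for Ccr4 and 0.83 for Ccl22, so these distances are not set against each other between members. All these points share the libraries, their depth and the grouping, and the likeness is a description.

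Ccl1, Ccl8 and Ccl11 lie on chromosome 11, as Alox15 does, with 230 to 233 coding genes between, in the RefSeq order of GRCm38.p6. Ccl24 lies on chromosome 5, and Ccr3, Ccr4 and Ccr8 on chromosome 9. The part of chromosome 11 linkage in the Ccl11 difference between KO_HDM and WT_HDM was not tested.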

How the data were processed

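Whole-lung RNA of 20 libraries was sequenced, and the values the authors deposited are expected counts of each gene, as RSEM estimates them, with no normalization. Per the submitters' processing notes, Bowtie2 2.1.0 and RSEM 1.2.15 were used; the build named there, hg38, is human although the table lists mouse symbols, so gene names alone were used. Promoter windows and chromosomes come from RefSeq, GRCm38.p6, which had windows for 7 of 9 members. Per the labels' protocols, libraries were oligo-dT selected and stranded. Of the members, only Ccr4 had values that were not whole (tolerance 0.001), as RSEM gives where reads match several genes.

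Expected counts were rounded, filtered with filterByExpr (16193 of 24054 genes kept) and scaled with TMM. In R 4.3.3, edgeR 4.0.16 fitted a mean per group over all 20 libraries (16 residual degrees of freedom) with robust quasi-likelihood F tests, adjusted by Benjamini-Hochberg over all genes tested in each comparison. Reported CPM use the TMM-scaled library sizes. Alternatives used DESeq2 1.42.0 and limma 3.58.1 voom, other filters and scaling, 10 libraries alone, a replicate block and leaving out each library. Scripts were tested on simulated data.

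The members and gene lists were chosen with earlier results of these data known. Named genes are the members, Alox15, up to 4 genes per list and comparison with the largest called change, and the 3 genes most like each member with a mean log2 CPM of 1 or more. Stat6, Ear1, Epx, Il4, Il13, Ccl26, Ccl5, Csf2rb and Cd3e were named for their roles after their values were seen. Ear2 and Rora were named for their high CPM within their lists, also after their values were seen. The labels call the libraries biological replicates but do not say how the animals were housed or handled, so p-values measure the spread between these libraries. Total counts were 17840138 to 21082770 in KO_HDM, 12573113 to 20662632 in WT_HDM, from 21120878 to 23305673 in KO_saline, and from 15601878 to 21715842 in WT_saline, and at this depth levels near 0.1 CPM are a few counts. The values of 1 gene of the receptor list are not reported here.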

Additional observations from a re-analysis of the deposited data

Results flagged for a closer look

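Each of 54 groups of 5 values was searched for a highest or lowest library far from its nearest neighbour, and 10 were found. For independent, normally spread values chance alone gives such a library in about 1 of 20 groups. CPM need not be spread so, and these groups share libraries and genes, so the 10 are not set against that rate. WT_saline 4 stood alone at the top of its group for 4 members. It had 59.1 CPM of Ccl22, where the next library had 9.30 CPM. It had 5.15 CPM of Ccl8, where the next had 1.38, and 5.48 CPM of Ccr4, where the next had 1.92. It had 0.966 CPM of Ccr8, where the next had 0.425. That library also held the most lymphoid and T cell markers of all, and its part in these values was not tested.

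KO_HDM 5, rich in adipose transcripts, had 18.1 CPM of Ccl11, where the next KO_HDM library had 8.66 CPM. WT_saline 2, also rich in them, had 1.71 CPM of Ccl24, where the next WT_saline library had 0.644 CPM. KO_HDM 2 had 20.3 CPM of Ccl17, where the next KO_HDM library had 12.8 CPM. Log2 of Ccl24 over Ccl11 was lowest in WT_HDM 5, at −3.54, where the nearest WT_HDM library lay at −0.97. Log2 of Ccr4 over Cd3e was lowest of KO_saline in KO_saline 4, at −2.93 (nearest −2.54), and highest of WT_HDM in WT_HDM 3, at −0.46 (nearest −1.11).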

How the results depend on the processing

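The HDM calls of Ccl8, Ccl11, Ccl17 and Ccr3 held in both genotypes under every alternative that tested them. Scaling moved the median gene by at most 0.0082. Members called between KO_HDM and WT_HDM numbered 1 with no filter, 1 with a replicate block and 0 with only the 10 libraries compared, where Ccl24 had adjusted p = 0.0884, and 0 to 2 when a library was left out. Genes called there ran from 576 (without KO_HDM 4) to 1396, and those of the interaction from 79 (without KO_HDM 4) to 260; DESeq2 called 609 and the fit without adipose-rich libraries 103. DESeq2 called 316 genes in KO_saline against WT_saline, and the 10 libraries alone gave 2854 with HDM in wild type; no cause was tested. Interaction members called were 1 under DESeq2 and 1 without adipose-rich libraries.

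Signs turned mostly where no call was made. Ccl22 with HDM in wild type was 0.28 with the block, 0.23 with voom, 0.74 without adipose-rich libraries and 1.11 without both saline libraries numbered 4, and ran from −0.39 to 1.10 with a library left out. KO_saline over WT_saline was 0.12 (voom), 0.75 (no adipose-rich) and 0.59 (no saline 4) for Ccl22; without adipose-rich libraries it was 0.29 for Ccl11, 0.39 for Ccl24, 0.33 for Ccr4 and 0.013 for Ccr8. The interaction of Ccr4 was −0.13 there. With a library left out, KO_saline over WT_saline ran from −0.61 to 0.78 (Ccl22), −0.54 to 0.30 (Ccl24), −1.07 to 0.027 (Ccr4) and −0.81 to 0.15 (Ccr8), KO_HDM over WT_HDM from −0.13 to 0.16 (Ccr4), and the Ccl22 interaction from −1.45 to 0.086.

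For the ratios, a pseudocount of 0.1 gave 0.12 for Ccl24 over Ccl11 and 1.55 (adjusted exact permutation p = 0.0317) for Ccr4 over Cd3e with HDM in wild type. For Ccr8 over Cd3e it gave 0.54 with HDM in libraries labelled knockout, 0.019 for KO_HDM over WT_HDM and −0.078 for KO_saline over WT_saline. A pseudocount of 2 gave −1.06 (adjusted p = 0.0423) for Ccl24 over Ccl11 and 0.26 for Ccr4 over Cd3e with HDM in libraries labelled knockout, and 0.0085 for that ratio in KO_saline over WT_saline. With a library left out, Ccl22 over Ccl17 ran from −1.93 to −1.52 (HDM, knockout label), −2.21 to −1.55 (HDM, wild type), −0.22 to 0.31 (KO_HDM over WT_HDM) and −0.38 to 0.32 (KO_saline over WT_saline). Ccl24 over Ccl11 ran from −1.45 to −1.08, −0.36 to 0.42, −1.54 to −0.76 and −0.040 to 0.33 in the same order. Ccr4 over Cd3e ran from 0.60 to 0.82, 1.16 to 1.62, −0.84 to −0.55 and −0.29 to 0.17, and Ccr8 over Cd3e from −0.18 to 0.10, −0.10 to 0.43, −0.34 to −0.03 and −0.27 to 0.25.

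Whether replicate numbers pair the libraries was not settled, since correlations of this kind cannot exclude it. Same-number correlations lay between −0.43 and 0.51, and 12 of 20 exceeded 0.1. In 6 of 20 the library's own number gave the best correlation. Between KO_saline and WT_saline they were 0.478, 0.257, 0.371, 0.439 and −0.0128 for numbers 1 to 5. Blocked by number, Ccl11 between KO_HDM and WT_HDM was −1.17 (adjusted p = 0.0557), and the ratio differences −1.97, −1.79 and 0.73 had adjusted exact permutation p = 0.2; 5 pairs cannot give a two-sided p under 0.0625, so this test says nothing of stability. Fits without adipose-rich libraries and without both saline libraries numbered 4 were chosen after the data were seen. Low counts limit Ccl1, Ccr8 and saline Ccl24.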

Other observations

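Structural and mast cell genes of the same lungs were also read with HDM. In these comparisons 51.9% of all genes were called in libraries labelled knockout and 30.1% in wild type. Of 6 lung epithelial markers, 5 fell in libraries labelled knockout, among them Scgb1a1, the club cell secretory protein (−1.84 on the log2 scale), and Ager, a marker of flat alveolar cells (−1.12). In wild type 1 fell, Scgb1a1 (−1.40), and 1 rose, the surfactant protein Sftpa1 (0.57; 0.48 with edgeR adjusted p = 0.0557 without WT_saline 4 and KO_saline 4). Of 9 fibroblast and smooth muscle markers, 2 rose in libraries labelled knockout, the collagens Col1a1 (1.44) and Col3a1 (1.81), and 3 fell, or 6 fell without the adipose-rich libraries. In wild type 1 rose, Col3a1 (0.92), and 2 fell, Pdgfra (−0.82) and Pdgfrb (−0.86), which encode growth factor receptors of mesenchymal cells. Of 5 tested basophil and mast cell markers, 2 fell in each genotype: Gata2, a transcription factor (−1.56 in libraries labelled knockout and −1.08 in wild type), and Hdc, the histamine-forming enzyme (−1.02 and −0.58). Between KO_HDM and WT_HDM edgeR called 0 of these 6, 9 and 5 markers.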
